A study of Arabidopsis thaliana with 4 samples.

Results

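The B-box zinc finger genes of *Arabidopsis thaliana* were taken from the deposited PacBio list of Pfam families, in which 1 of 4091 families carries that name. Its reference transcripts belong to 29 genes, and 28 of these are described here, of 22263 reference genes in the whole list. The remaining gene was set aside when the set was defined. Wild-type Col-0 plants with no treatment were grown under long days, and the aboveground parts were collected when rosette growth was complete. Each replicate pooled several plants. One PacBio library gave the family list, which holds no measurement, and 3 ONT Pc libraries (amplified cDNA read on a Nanopore PromethION), named CTRL1, CTRL2, and CTRL3, gave the levels. There is therefore no treated group, and the comparisons below are between genes and between replicate libraries.

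The deposited CPM were traced back to 8122432 reads in CTRL1, 7386184 in CTRL2, and 6835029 in CTRL3, and each library was rescaled to its own total, so that 1 CPM is 1 read per 1000000 reads of that library. A count of 0 allows up to 3 reads, or 0.369, 0.406, and 0.439 CPM in the same order. The leaf genes RBCS1A, RCA, and CAB1 had means of 3744 CPM (RCA) to 27170 CPM (RBCS1A), whereas 2 of 4 root genes (CASP1 and CASP2) and 3 of 3 floral organ genes (AG, AP3, and PI) had at most 7 reads in any library, and EXP7 and COBL9 had no row. Leaf genes were thus abundant, and genes of root and floral organs were near the floor. CTRL3 stood apart from the other libraries in clock genes. Reads of ELF4 numbered 13 and 16 in CTRL1 and CTRL2 but 284 in CTRL3. Of 10 clock genes, listed with this difference already known, 5 were at least 2-fold higher in CTRL3 and 1, LHY, was at least 2-fold lower. Over the 17343 reference genes with at least 20 reads, the shares were 1.83% higher and 1.45% lower. Counts of members at least 2-fold higher or lower in CTRL3 are given below against each other library alone as well.

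B-box proteins fold around zinc ions bound by cysteine, aspartate, and histidine residues, and many act as transcription factors or as partners of them. In plants they are best known from light signalling, where several act with or against HY5, the bZIP factor that promotes development in light, and are marked for degradation by COP1, a ubiquitin ligase that acts in darkness. Others set flowering time or act near the circadian clock. Some members also carry a CCT domain near the C-terminus, which the clock protein TOC1 shares and which takes part in DNA binding. Of the 28 members, 16 were also listed under the Pfam family CCT motif and 12 were not.

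The first B-box of a member with a high level, of the member furthest above its other replicates in CTRL3, and of the one furthest below is shown to make the shared ligands visible. The coding strand of RefSeq TAIR10.1 is given 5′ to 3′, and capitals mark the codons of the 8 residues at ligand positions. COL3 lies at chr2:10566980-10567093, plus strand, COL9 at chr3:2442506-2442619, plus strand, and BBX30 at chr4:8708974-8709084, plus strand.
COL3: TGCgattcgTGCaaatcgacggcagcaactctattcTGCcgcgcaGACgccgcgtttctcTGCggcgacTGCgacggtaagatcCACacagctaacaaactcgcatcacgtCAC
COL9: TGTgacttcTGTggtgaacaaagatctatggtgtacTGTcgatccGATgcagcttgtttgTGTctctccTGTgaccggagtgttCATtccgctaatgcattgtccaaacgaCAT
BBX30: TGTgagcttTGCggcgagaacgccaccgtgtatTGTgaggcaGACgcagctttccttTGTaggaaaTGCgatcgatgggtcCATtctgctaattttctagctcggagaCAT
All of the stretches lie within 1 coding exon. COL9 and COL3 were identical at 48.2% of 114 bases. The median was 52.6% over the 234 pairs of members whose first B-boxes found are of equal length, so this pair lay below it. COL9 was closest to BBX8, with 86.8% of bases identical, and BBX30 matched BBX31 at 78.4% of 111 bases. Reads of such close copies could be divided between them in the authors' counting, and this was not tested.

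Of the 28 members, 25 had a row in the ONT Pc table and all 25 had at least 20 reads in all. BBX10 (AT3G21880), bbx23 (AT4G10240), and BBX9 (AT4G15250) had none, and no value is given for them. In every replicate, 24 members had more than 3 reads. The exception was BBX31, with 3 reads in CTRL3. By library (CTRL1, then CTRL2, then CTRL3) the members together took 1825, 2217, and 1893 CPM, or 1979 ± 209 CPM (SD, n = 3 replicates). The family thus held 0.183% to 0.222% of the reads, although single members differed far more between libraries. The median over the members was 18.9 CPM, beside 12.7 CPM over the 17343 reference genes with at least 20 reads.

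**Figure D1:**
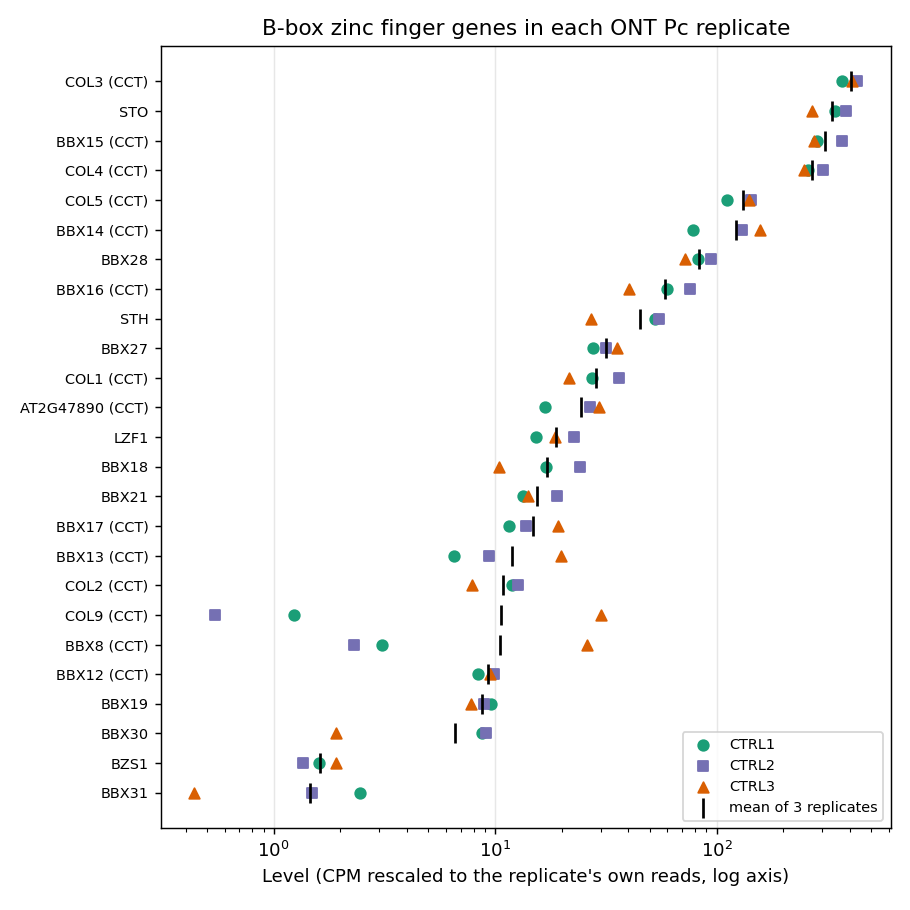
Level of each of the 25 B-box members with reads, as CPM rescaled to the replicate's own reads on a log axis, with 1 symbol per ONT Pc replicate and a bar at the mean. COL3 is at the top with 403 CPM, and the 3 replicates lie close together for most members but not for COL9 and BBX8, whose CTRL3 symbols lie far to the right.

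COL3, STO, BBX15, and COL4 stood above the other members. COL3 (AT2G24790), which acts in light signalling and binds COP1, had 370, 432, and 408 CPM in the order CTRL1, CTRL2, CTRL3, which is kept below. Its mean of 403 ± 31.4 CPM (SD, n = 3) placed it 267th among all reference genes by mean level. STO (AT1G06040, also BBX24), which binds COP1 and opposes HY5, had 344, 386, and 270 CPM. BBX15 (AT1G25440) had 285, 368, and 276 CPM. COL4 (AT5G24930), a regulator of flowering time, had 259, 302, and 248 CPM. Together these members held 66.5% ± 2.77 of the family's reads (SD, n = 3). The excess of COL3 over STO was 69.9 ± 59.3 CPM (SD, n = 3) and was seen in 3 of 3 replicates. An exact two-sided test by flipping signs gave p = 0.25, and no smaller p can be had from 3 replicates. Their ranges still overlapped, as did those of STO and BBX15 and of BBX15 and COL4.

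The next group was separated from them. COL5 (AT5G57660), which can advance flowering when overexpressed, had 111, 144, and 141 CPM, so that its highest replicate lay below the lowest of COL4. This was the only one of the 24 pairs of neighbours in the order whose ranges over the replicates did not overlap, and the order within the rest of the family is loose. BBX14 (AT1G68520) had 78.6, 130, and 157 CPM, so CTRL1 was low and the others were closer together. BBX28 (AT4G27310), which hinders binding of DNA by HY5, had 82.6, 94.2, and 72.0 CPM. BBX16 (AT1G73870), with a role in the response to shade, had 59.7, 75.7, and 40.4 CPM. These levels were not divided by length, since a read of an amplified cDNA is counted once whatever its length. After division by annotated transcript length the same 4 genes came first and COL5 was the fifth, but COL4 passed STO and BBX15, with 247 CPM per kb against 239 and 178. The annotated transcript of COL4, at 1089 bases, equals its coding length and holds no UTR, which raises its value per kb, so its place above STO is not firm.

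In all, 6 members had a mean of at least 100 CPM, 14 lay between 10 and 100 CPM, and 5 lay below. BBX21 (AT1G75540) and LZF1 (AT1G78600, also BBX22), which work with HY5 in promoting development in light, were modest. BBX21 had 15.5 ± 3.11 CPM and LZF1 had 18.9 ± 3.67 CPM (SD, n = 3). STH (AT2G31380, also BBX25), a close relative of STO, had 44.99 ± 15.6 CPM (SD, n = 3). At the bottom were BZS1 and BBX31. BZS1 (AT4G39070, also BBX20), which acts in brassinosteroid and light responses, had 13, 10, and 13 reads, or 1.60, 1.35, and 1.90 CPM, and its replicates lay together. BBX31 (AT3G21890), a short protein with a B-box and little else, had 20, 11, and 3 reads, or 2.46, 1.49, and 0.439 CPM, with CTRL3 the lowest. In BBX31 the reads of CTRL1 and CTRL2 have 95% exact Poisson intervals of 12.2 to 30.9 and 5.49 to 19.7, and that of CTRL3 is 0.619 to 8.77. The interval of CTRL2 overlaps both of the others, and those of CTRL1 and CTRL3 do not overlap. Such intervals cover counting error only, since reads that are PCR copies of 1 cDNA are not separate molecules.

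The members were also grouped by the CCT domain, which the family name does not give. They were not grouped by their number of B-boxes, because the strict spacing of zinc ligands searched for in the translated RefSeq coding sequences can miss a divergent box. In BBX19, for example, the only match resembles the second B-box of BBX18. Among members with a row, those with a CCT domain ran from 9.26 CPM (BBX12) to 403 CPM (COL3). Those without ran from 1.46 CPM (BBX31) to 333 CPM (STO), so the groups overlapped widely. The shortest member, BBX30, with 117 codons, lacks the domain. The median of the 14 members with a CCT domain and a row was 26.4 CPM, against 17.2 CPM for the 11 with a row but no CCT domain. BBX9 and BBX10, with the domain, and bbx23, without it, had no row and are left out of these medians. The gap between the medians was 9.21 CPM, and it ran from 6.77 CPM in CTRL1 to 15.8 CPM in CTRL3. Per kb of transcript it was 3.04 CPM. Genes are not replicates, so no test was made.

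Between replicates the members varied more than most genes. Their median coefficient of variation over the 3 replicates was 23.9%, beside 15.1% over the 17343 genes tested and 14.6% over the 16079 of those within the members' range of mean level. COL3 had the lowest, 7.79%, and COL9 the highest, 159%. The plants and the library differ between replicates, and whether the harvest did is not stated. These cannot be told apart.

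CTRL3 was compared with the mean of CTRL1 and CTRL2 after 0.5 was added to the rescaled CPM and log2 was taken, over all genes with at least 20 reads. Since 1 library stands on one side, there is no p-value. At least 2-fold higher in CTRL3 were 3 of 25 members (12%), against a background of 1.83% of the genes tested. At least 2-fold lower were 2 of 25 members (8%), against 1.45%. The same 3 members were higher against CTRL1 alone (background 3.41%) and against CTRL2 alone (2.67%). Against CTRL1 alone the same 2 members were lower (background 1.18%), and against CTRL2 alone 4 members were (2.36%). Between CTRL2 and CTRL1, 0 of 25 members differed by 2-fold in either direction, with backgrounds of 2.98% higher and 0.853% lower. The comparison was made because CTRL3 was already known to stand apart.

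**Figure D2:**
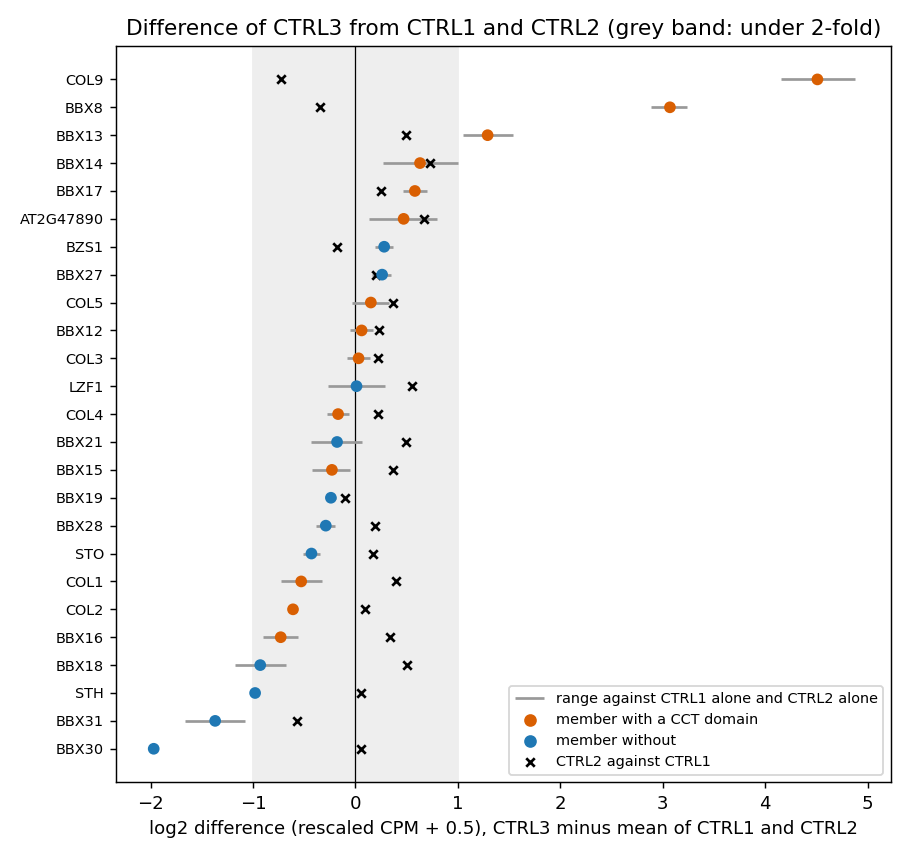
Difference of CTRL3 from the mean of CTRL1 and CTRL2 for each B-box member with reads, in log2 of rescaled CPM plus 0.5. Points are the differences, lines run between the values against CTRL1 alone and CTRL2 alone, crosses give CTRL2 against CTRL1, and the grey band holds differences under 2-fold. COL9, BBX8, and BBX13 lie to the right of the band and BBX30 and BBX31 to the left, while all crosses lie inside it.

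All 3 of the members that were higher carry a CCT domain, as do 14 of the 25 members with a row. COL9 (AT3G07650, also BBX7), which delays flowering when overexpressed and takes part in cold tolerance, had 10, 4, and 206 reads, or 1.23, 0.542, and 30.1 CPM. CTRL3 alone was high, and the log2 difference was 4.51. By reads the ratio of CTRL3 to the pooled other libraries was 33.4, with a 95% exact counting interval of 19.5 to 62.2. Its closest relative in the B-box, BBX8 (AT5G48250), also known from cold tolerance, had 25, 17, and 178 reads, or 3.08, 2.30, and 26.0 CPM. The log2 difference of BBX8 was 3.07, and the ratio was 9.62 (6.84 to 13.8). BBX13 (AT1G28050) had 53, 69, and 136 reads, or 6.53, 9.34, and 19.9 CPM. For BBX13 the log2 difference was 1.29 and the ratio 2.53 (1.97 to 3.26), and its ranges were apart as well. In all 3 genes CTRL3 lay above both other libraries, by far more than CTRL1 and CTRL2 differed from each other in COL9 and BBX8 (log2 -0.73 and -0.35), and by more in BBX13 (log2 0.49).

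Both members that were lower lack a CCT domain, as do 11 of the 25 members with a row. They are the short B-box proteins called microproteins, which can join other B-box proteins and delay flowering. BBX30 (AT4G15248) had 71, 67, and 13 reads, or 8.74, 9.07, and 1.90 CPM. CTRL1 and CTRL2 were nearly equal and CTRL3 alone was low, with a log2 difference of -1.97. By reads BBX30 was 4.68-fold lower in CTRL3 (95% exact counting interval 2.65 to 9.01). BBX31 had 20, 11, and 3 reads, a log2 difference of -1.37, and was 4.55-fold lower (1.42 to 23.3). With only 3 reads in CTRL3, the size of the difference in BBX31 is poorly known.

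Just under the limit lay STH and BBX18 (AT2G21320), which acts in the growth response to warmth, with log2 differences of -0.98 and -0.93. STH had 52.9, 55.0, and 27.1 CPM and BBX18 had 17.0, 24.2, and 10.4 CPM, and CTRL3 was the lowest in both. Against CTRL2 alone they were -1.01 and -1.18 and passed the limit. The remaining members under the limit lay between -0.73 (BBX16) and 0.63 (BBX14). Against CTRL1 alone BBX14 was at 1.00 after rounding, just under the limit. Of the 25 members, 8 were highest in CTRL3, 12 were lowest there, and 5 lay between the other libraries. The median over the members was -0.17, beside 0.09 over the genes tested. Among members with a CCT domain 9 of 14 lay above 0, with a median of 0.11, and among those without 3 of 11 did, with a median of -0.29. These counts describe the direction of the values only, and the matching shares over all genes tested were not computed.

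The clock genes are given beside these values, since they differed in CTRL3 as well. TOC1, an evening gene of the clock that also carries a CCT domain, had 4.06, 6.36, and 26.9 CPM, and LUX, of the evening complex, had 25.7, 16.1, and 75.9 CPM. LHY, a morning gene, had 9.48, 13.3, and 4.39 CPM, and CCA1, its partner, had 17.1, 15.2, and 8.93 CPM. GI changed little, with 7.39, 7.99, and 10.2 CPM and a log2 difference of 0.39. PRR9, PRR7, and CCA1 were lower but under 2-fold, at -0.62, -0.30, and -0.82. PRR5 and ELF3 were higher, at 1.12 and 1.19. Over the 10 clock genes the log2 differences ran from -1.26 (LHY) to 4.15 (ELF4), so COL9, at 4.51, lay beyond the highest of them. The part of the clock in the differences of the B-box members was not tested. In bulk tissue, more RNA per cell and more cells that hold the RNA cannot be told apart.

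**Figure D3:**
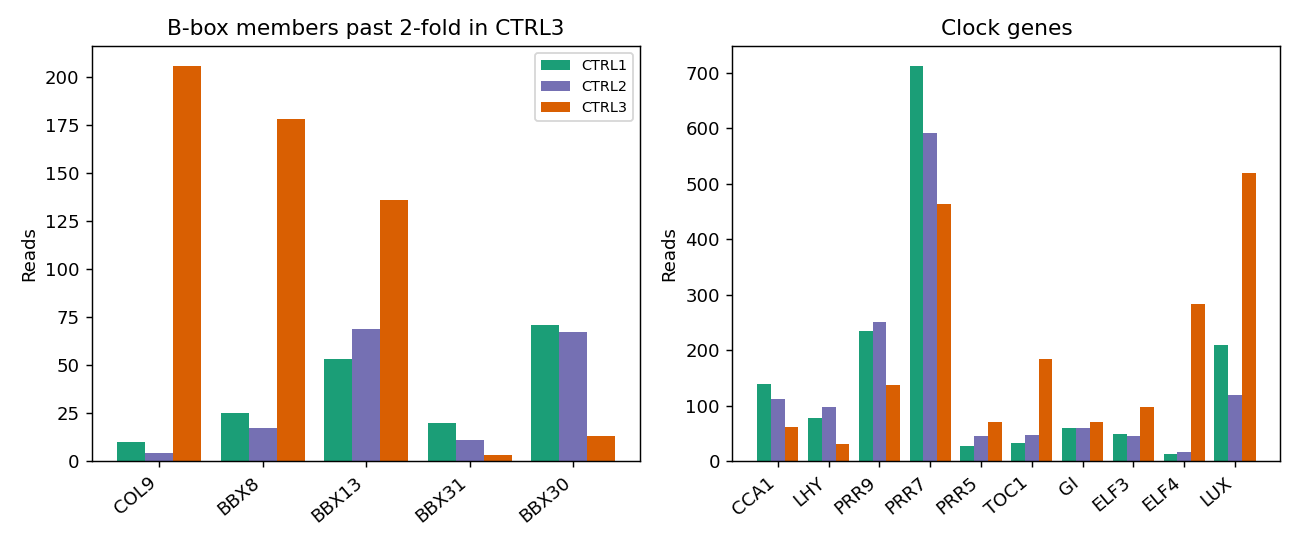
Reads in CTRL1, CTRL2, and CTRL3 of the 5 B-box members past 2-fold in CTRL3 (left) and of the 10 clock genes (right), both axes starting at 0. COL9 goes from 10 and 4 reads to 206 and ELF4 from 13 and 16 to 284, whereas BBX30 goes from 71 and 67 to 13.

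Upstream sequence was examined because 3 members were at least 2-fold higher in CTRL3 and 2 were at least 2-fold lower. The 500 bases before each annotated start in RefSeq TAIR10.1 were searched on both strands for AAAATATCT, the evening element, a motif bound by the morning clock proteins CCA1 and LHY. At least 1 was found for 7 of 28 members (25.0%), against 4.44% of 27443 protein-coding genes. With at least 2 there were 3 members, BBX8 with 3 and COL9 and BBX13 with 2 each, against 0.251% of all genes. These are the same 3 members that were higher in CTRL3. COL9 and BBX8 are also the closest pair of members by first B-box, with 86.8% of bases identical. They need not be separate cases. The 4 members with exactly 1, STO, BBX28, LZF1, and COL2, had log2 differences of -0.61 to 0.01. The 18 members with none and a row had -1.97 to 0.63. Over the whole table, 13.5% of 318 genes higher in CTRL3 had the motif, 3.17% of 252 lower genes, and 4.60% of 17332 genes tested. Of the 49 genes tested with at least 2 matches, the 3 members included, 12 were higher and 0 were lower. Most genes with at least 2 matches were therefore under 2-fold. A match is a description of the letters and not evidence that a protein binds there, and the motif was chosen with the behaviour of clock genes in CTRL3 known.

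The stretches that hold the evening elements of these 3 members are shown from 20 bases before the outermost match (BBX8 up to the annotated start), on the strand of the gene and 5′ to 3′. Capitals mark the matches, and AGATATTTT is the same motif on the other strand. COL9 is at chr3:2441100-2441192, plus strand, BBX8 at chr5:19563833-19564087, minus strand, and BBX13 at chr1:9778270-9778339, minus strand.
COL9: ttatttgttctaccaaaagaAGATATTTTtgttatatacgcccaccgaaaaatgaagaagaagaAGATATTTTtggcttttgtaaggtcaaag
BBX8: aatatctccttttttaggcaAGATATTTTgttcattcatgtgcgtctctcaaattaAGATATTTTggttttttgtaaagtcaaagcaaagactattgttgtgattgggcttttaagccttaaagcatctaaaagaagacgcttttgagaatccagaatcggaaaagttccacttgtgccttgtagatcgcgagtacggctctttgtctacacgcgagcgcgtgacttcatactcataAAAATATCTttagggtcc
BBX13: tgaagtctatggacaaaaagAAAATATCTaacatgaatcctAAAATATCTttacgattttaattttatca
In COL9 the matches end 393 and 437 bases before the start, and in BBX13 247 and 268 bases before it. In BBX8 they end 227, 191, and 10 bases before it. The 2 matches of COL9 and the 2 distal matches of BBX8 lie on the other strand.

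The letters CACGTG, the G-box, to which HY5 can bind, read the same on both strands and were found upstream of 5 of 28 members (17.9%), against 9.35% of genes. They were BBX13, BBX10, BBX30, BBX9, and COL4. The stretch of BBX30 is shown because it was the furthest below in CTRL3, at chr4:8708749-8708794, plus strand, with the G-box in capitals.
BBX30: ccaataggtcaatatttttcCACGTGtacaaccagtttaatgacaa
The match ends 67 bases before the annotated start of BBX30, and BBX31, which was lower as well, has no match in its window. AAAAATCT, another site of CCA1, was found upstream of 6 of 28 members (21.4%), against 12.5% of genes, and of 0 of the 5 members past 2-fold. In these windows no match of one motif overlapped a match of another.

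Partners of B-box proteins in light signalling were given from a list of 11 genes, all of which were tested. None was at least 2-fold higher or lower in CTRL3, against the backgrounds of 1.83% and 1.45%, and the median log2 difference was -0.10. HY5 had 5.05, 3.39, and 3.66 CPM, below 23 of the 25 B-box members by mean. Its relative HYH had 12.1, 8.26, and 4.83 CPM, a log2 difference of -0.98. COP1 had 8.86, 10.7, and 13.5 CPM. SPA1, which works in a complex with COP1, was the highest of the list with 34.5 ± 6.23 CPM (SD, n = 3). All 11 therefore lay below the 9 highest B-box members.

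In the single PacBio library, 26 isoforms at 12 loci were listed under the B-box family. The loci are numbered by the authors and are not paired with reference genes, so isoforms of the gene set aside may be among them. The list gives no reads, so an isoform counts as listed or not listed. PB.3490 had 7 B-box isoforms, PB.2663 had 4, and PB.14017 had 3. PB.11868, PB.2730, and PB.9618 had 2 each, and the other 6 loci had 1. The mean was 2.17 B-box isoforms per locus. Over all 7368 loci in the list it was 3.35, but there isoforms under any family count, so these means are not counted alike. The share of loci with a single listed isoform was 50.0%, beside 38.9%. The 6 loci with 1 B-box isoform list no other under any family, so their share is the same counted either way. Isoforms under no Pfam family are not in the list and are not counted.

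**Figure D4:**
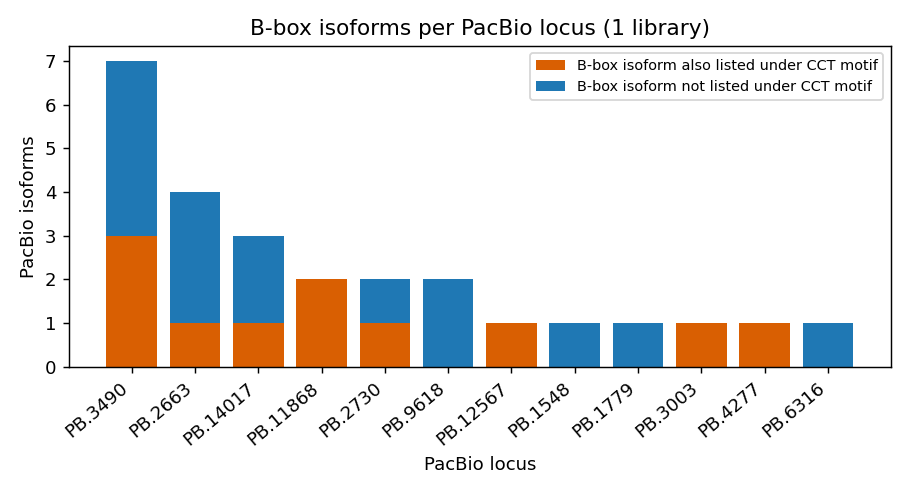
B-box isoforms listed at each of the 12 PacBio loci, split into those also listed under CCT motif and those not. PB.3490 holds 7 isoforms, 3 with and 4 without the CCT motif, and PB.2663, PB.14017, and PB.2730 also hold both kinds.

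A CCT domain was listed for 11 of the 26 isoforms and not for 15. Of the 12 loci, 8 had at least 1 isoform with both domains and 4 had none. At 4 loci both kinds stood side by side. PB.3490 had 3 isoforms with the CCT domain and 4 without, PB.2663 had 1 and 3, PB.14017 had 1 and 2, and PB.2730 had 1 of each. PB.2663 and PB.14017 each had 1 further isoform listed under CCT motif but not under the B-box family. In the reference, by contrast, 2 of the 24 transcripts of the CCT members lacked the CCT motif, 1 of COL3 and 1 of AT2G47890. How the PacBio isoforms with and without it differ in sequence was not tested. Of the 41 reference transcripts of the members, COL9, BBX10, BBX27, and AT2G47890 had 3 each and 19 members had 1.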

How the data were processed

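Aboveground parts gave 3 ONT Pc libraries and 1 PacBio library. The authors base-called the Nanopore reads with Guppy, filtered them, built consensus sequences with Racon, mapped these with GMAP, and estimated reads per transcript with Salmon. The deposited gene values are CPM. The submitters' processing notes also name minimap2 and the build TAIR10. The deposited columns add to different totals, since CTRL2 and CTRL3 were divided by more than their own reads. For PacBio, the authors polished isoforms, removed redundant ones, and deposited identifiers by Pfam family.

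Each CPM column was divided by its smallest value above 0. Within 0.01 of a read, 100% of values came out whole, so reads were recovered and rescaled to 1000000 per library. No count model was fitted, because there is 1 replicated group and nothing to test it against. Differences were computed over the whole table. Gene models and sequences came from RefSeq TAIR10.1, which held all 28 members. Members and lists were chosen with earlier results of these data known. Values in every replicate were given for the 8 members of highest mean, for those past 2-fold in CTRL3, and for the 2 lowest. STH, BBX18, and genes of the clock and light signalling lists were added after their values were seen. Alternatives covered the pseudocount, scaling, length, filters, and replicates left out. Computation used scipy 1.17.1, pandas 2.3.3, and numpy 2.4.6 in Python 3.11.15, with figures from matplotlib 3.10.9. P-values and SDs measure only the spread between these pools of plants and their libraries, including counting error.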

Additional observations from a re-analysis of the deposited data

How the results depend on the processing

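No paired analysis was possible because only 1 group has replicates, the PacBio sample shares fewer than 2 numbers with it, and the groups were compared by no test. The 3 members higher in CTRL3 were the same genes with a pseudocount of 0.1 or 1, with no minimum of reads, with median-of-ratios scaling, and against CTRL1 or CTRL2 alone. CPM as deposited left 2 of them, COL9 and BBX8, with BBX13 at a log2 difference of 0.16. The number of lower members, 2, became 4 with median-of-ratios scaling, which added STH and BBX18, and 16 with CPM as deposited, where the divisor of CTRL3 exceeds its own reads. Leaving out CTRL1 or CTRL2 gave 2 to 4. BBX30 and BBX31 were in each of these sets. The share over all genes tested was not computed for the other pseudocounts, scalings, or filter, so those counts have no background. Median-of-ratios scaling moved the median over all genes tested from 0.09 to 0.01 and that of the members from -0.17 to -0.26.

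The median level, 18.9 CPM, was 11.9 per kb of transcript and 10.6 with CPM as deposited, and 17.0 to 20.7 with 1 replicate left out. The CCT gap, 9.21 CPM, was 3.04 per kb and 7.89 to 11.3 with 1 replicate left out. The median coefficient of variation, 23.9%, was 16.7% to 23.0% with 1 replicate left out, an alternative chosen after seeing the data, and that over all genes tested was 11.9% to 13.0%. The number detected, 24, was 24 to 25 in every alternative run. With at least 2 isoforms required, 6 of the 12 PacBio loci were left, since the others list 1. Depth limits BBX31, BZS1, and COL9 most, with at most 20 reads in 2 or more libraries.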

Other observations

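Each of the microprotein genes lies beside another B-box member that had no row in the ONT Pc table. BBX30 on chromosome 4 (8708841 to 8709482, plus strand) ends 284 bases before BBX9 (8709767 to 8711526, minus strand). BBX31 on chromosome 3 (7708833 to 7709933, minus strand) lies 486 bases beyond BBX10 (7706257 to 7708346, plus strand). Both pairs point toward each other. The next closest pair of members, BBX19 and BZS1, is 41289 bases apart. BBX9 and BBX10 carry a CCT domain and BBX30 and BBX31 do not, and their first B-boxes match at 82.5% of 114 bases between BBX9 and BBX10 and at 78.4% of 111 bases between BBX30 and BBX31. The pairs were noticed after the values were seen.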
